A study of Mus musculus with 84 samples.

Results

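Livers of db/db mice given rosiglitazone (RSG) at 84 µmol/kg were compared with livers of db/db mice given the same molar dose of a second compound, named only S. The comparison takes in 12 of the 84 samples of the series, 6 livers per compound, and it was chosen by tissue, compound and dose in the sample labels. All 12 were male mice of the strain BKS Cg-m+/+ Leprdb/J, received at 8 weeks of age, that carry a defective leptin receptor gene and are obese and diabetic, and all took their compound by mouth for 18 days. The series also holds both compounds at 28 and 280 µmol/kg and an adipose tissue. RNA of each liver was hybridised on 2 Agilent 2-colour whole-genome arrays with exchanged dyes, against 1 pool of liver RNA. The pool came from 6 control db/db mice that got neither compound and were given vehicle, per the methods of the study. Values below are log2 ratios of a treated liver to that pool, so that 0 is the level of the pool, and differences are RSG minus S. The same pool was used for both groups, but it is a single control sample with no spread of its own. The mice are a leptin-receptor model, so all differences are between 2 treated diabetic groups and none is against a healthy liver. S has no structure given in the sources used here, so nothing is said of how its structure relates to that of RSG.

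RSG is a thiazolidinedione and an agonist of the nuclear receptor PPARγ, which drives fat storage genes in adipocytes and is also active in fatty livers of obese mice. Its relative PPARα is the main inducer of fatty acid oxidation genes in mouse hepatocytes, among them those of the peroxisomal pathway and the Cyp4a family. Another regulator, SREBP-2, switches on the genes of cholesterol synthesis when the sterol content of the cell is low.

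The share of probes well above background was 48.5% to 59.5% in the treated channel of the RSG livers and 52.6% to 62.5% in that of the S livers. All 14 measured hepatocyte markers were well above background on all 24 arrays, and their median ratio to the pool was -0.68 with RSG and -0.79 with S. The RSG livers were scanned on 2 days and the S livers on 3 other days, and no slide held both compounds. Scan day and compound therefore cannot be told apart at this dose. The pool channel alone, which held the same RNA throughout, differed between the arrays of RSG and of S in 186 sequences at an adjusted p under 0.05 and in 4423 at an unadjusted p under 0.05. RSG replicate 5 stood apart from the other RSG livers in several lists, with a median ratio of 2.26 for interferon-induced genes (others -0.23 to 0.32), 1.45 for antigen presentation (others -0.73 to 0.14), 1.53 for neutrophil markers (others -0.45 to 0.82), 0.80 for Kupffer cell markers and 0.40 for acute phase genes. It also had the lowest RSG median for cholesterol synthesis, -0.53. Among the S livers, replicate 3 stood apart at 1.29 for interferon-induced genes (others -0.23 to 0.46) and 1.34 for neutrophil markers (others -0.37 to 0.46). S replicate 1 had the lowest mean correlation with its own group, 0.66, beside 0.67 for RSG replicate 5. With scan day as a term in the fit of all 36 treated livers, which leans on the other doses to estimate it, 0 sequences had an adjusted p under 0.05 and 2266 an unadjusted p under 0.05, while 469 of the 471 sequences called below had the same sign.

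A small share of the liver genes told the compounds apart. Of 25051 sequences (probes) tested with limma, 471 differed between RSG and S at an adjusted p under 0.05, which is 1.88%. They comprised 171 that were higher (0.683%) and 300 that were lower with RSG (1.20%), against 3807 sequences at an unadjusted p under 0.05. With 1 probe for each of 17703 genes, 353 genes were called (1.99%), of which 127 were higher (0.717%) and 226 were lower with RSG (1.28%). The typical difference was modest, with a median size of 0.37 among the called sequences, and 17 were at least 2-fold higher and 23 at least 2-fold lower with RSG. At the thresholds used in the methods of the study, a p below 0.001 before adjustment together with a change of 1.3-fold or more, 97 sequences were higher and 132 lower, together 0.914%. The 6 RSG livers lay apart from the 6 S livers in 542 sequences (2.16%), 270 of them among the 471. Mice shared cages per the methods, and the labels do not say which, so p-values measure the spread between livers without regard to cage. That spread was pooled over all 36 treated livers, those at 28 and 280 µmol/kg included. The number called rests on the samples: it was 167 when the 12 livers were fitted alone, 288 with the slide as a random block, and 309, 305, 288, 260 and 295 without RSG replicate 1, RSG replicate 5, S replicate 4, S replicate 5 or S replicate 6.

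**Figure D1:**
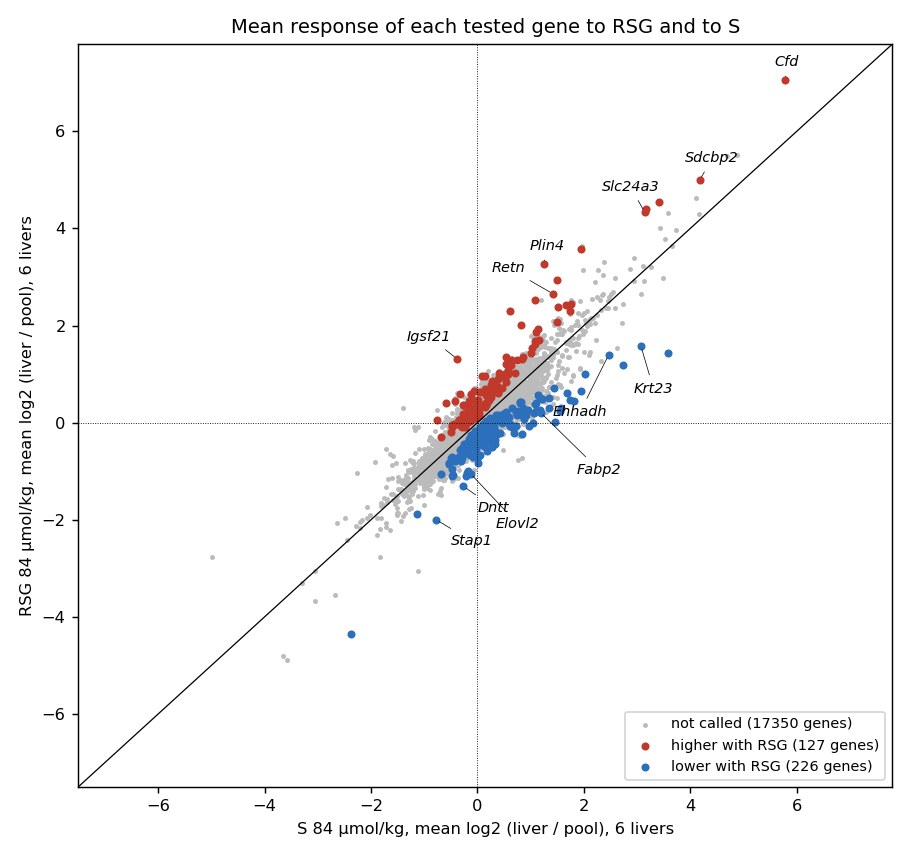
Mean log2 ratio to the pool of each tested gene over 6 RSG livers (y axis) against the mean over 6 S livers (x axis), both at 84 µmol/kg. Most genes lie along the line of equal response, 127 called genes above it (red) and 226 below it (blue), and Cfd lies at 7.05 with RSG and 5.79 with S.

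Among the genes of fat storage, Plin4, which encodes a coat protein of lipid droplets, stood out. Its log2 ratios to the pool ran from 2.91 to 3.74 in RSG livers (median 3.27) and from 0.01 to 2.06 in S livers (median 1.38). Every RSG liver was above every S liver, and S replicate 1 had the level of the pool. Plin4 was 4.04-fold higher with RSG (log2 difference 2.02, 95% interval 1.34 to 2.69, adjusted p = 0.000927). The probe lies at chr17:55693925-55693984 of mouse build mm8, on the minus strand. Of the 17 lipid droplet genes measured, Plin4 was the only one called higher. Plin3, another droplet coat protein, was the only one called lower (difference -0.31, adjusted p = 0.0223). In this list 12 differences were above 0 and 5 below it, with a median of 0.13 against -0.01 over all genes. In 4 of the 17 every RSG liver was above every S liver (0.915% of all genes). Cidec, which fuses droplets, ran from 4.14 to 4.66 in RSG livers and from 2.66 to 3.97 in S livers. The groups did not overlap, but the difference of 0.73 did not pass the test (adjusted p = 0.0847). Cidea, of the same family, was far above the pool in both groups, with medians of 4.35 and 4.29 for RSG and S, and its difference of 0.13 had an interval of -0.45 to 0.70. Gpat4, which attaches the first fatty acid to glycerol in triglyceride synthesis, had ratios of 0.31 to 0.52 in RSG livers and of -0.18 to 0.21 in S livers. It was 1.37-fold higher with RSG (adjusted p = 0.00322) and the only called gene of the 17 of its list.

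Several genes of secreted factors or of their synthesis were higher with RSG. Cfd, the complement protease adipsin that adipocytes secrete, had log2 ratios of 6.68 to 7.28 in RSG livers (median 7.12) and of 4.97 to 6.53 in S livers (median 5.93). Both groups were thus far above the pool, and the RSG livers were all higher, by 2.40-fold (difference 1.26, 95% interval 0.73 to 1.79, adjusted p = 0.00735). Retn, the hormone resistin of mouse adipocytes, ran from 2.20 to 3.12 with RSG and from 0.85 to 1.88 with S, again without overlap (difference 1.23, adjusted p = 0.00804). Chil1, a chitinase-like protein made by macrophages and epithelia, ran from 0.78 to 1.12 with RSG and from -0.16 to 0.47 with S (difference 0.82, adjusted p = 0.000653). Here the RSG livers were above the pool and the S livers scattered around it. Inhbb, a subunit of the activins, and Ptges, which makes prostaglandin E, passed the test narrowly, with differences of 0.92 (adjusted p = 0.0497) and 1.20 (adjusted p = 0.0462). Either one lost its call when any of 10 of the 12 livers was left out. Apcs, the amyloid P component of the acute phase, was higher by 0.45 (adjusted p = 0.032), a call lost without any of 7 of the 12 livers.

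Cfd and Retn are also adipocyte markers, and the marker list was read beside them. Of its 13 members 8 were measured and 2 called, both higher, beside 0.717% of all genes called higher. The median difference was 0.27, with 6 members above 0 and 2 below it, the lowest at -0.64. In 3 members every RSG liver was above every S liver (0.915% of all genes), and in 1 every RSG liver was below (1.41%). The median ratio of the list was 1.22 to 1.92 in RSG livers and 0.62 to 1.14 in S livers, and the summed level of its members in the treated channel was 16.39 to 17.57 in RSG livers and 15.54 to 16.42 in S livers on the log2 scale. Adipoq, the adipocyte hormone adiponectin, was well above background on 4 of 12 RSG arrays and 6 of 12 S arrays, with a difference of 0.25 (95% interval -0.54 to 1.05). Plin1, the main droplet protein of adipocytes, was well above background on 0 of 12 RSG arrays and 8 of 12 S arrays, and Lep and Adrb3 did not pass the filter on dim probes. In bulk liver a change in the number of cells of a type and a change in their RNA cannot be told apart.

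The remaining genes that were higher with RSG had varied roles. Slc13a4, a sulfate transporter, had log2 ratios of 2.76 to 3.08 in RSG livers (median 2.95) and of 1.02 to 1.96 in S livers (median 1.52). The RSG livers were tightly grouped and all higher, and the difference of 1.45 (95% interval 1.12 to 1.78) had the smallest p-value of all genes that were higher (adjusted p = 4.64e-06). Slc24a3, a sodium, calcium and potassium exchanger, ran from 3.89 to 4.87 with RSG and from 2.08 to 3.78 with S (difference 1.18, adjusted p = 0.0101). Sdcbp2, a PDZ domain protein, ran from 4.83 to 5.24 with RSG and from 3.57 to 4.54 with S (difference 0.82, adjusted p = 0.00654). Both of these genes were above the pool in every liver of either group, and more so with RSG. Hk2, a hexokinase typical of muscle and adipose tissue that phosphorylates glucose, was above the pool too, at 2.11 to 2.59 with RSG and 1.38 to 2.08 with S (difference 0.56, adjusted p = 0.0203). Elovl3, an elongase of long fatty acids, was higher by 0.76 (adjusted p = 0.0163), although its groups overlapped. Of the 18 fatty acid synthesis genes measured, Elovl3 was the only one called higher and Fads1 the only one called lower. Of all genes 0.717% were called higher and 1.28% lower. The median difference of that list was -0.19, with 4 members above 0 and 14 below it. Casz1, a zinc finger transcription factor, was higher by 0.88 (adjusted p = 0.0124) and Abca1, which exports cholesterol to apolipoprotein A1, by 0.24 (adjusted p = 0.0182). The call of Abca1 was lost without any of 3 of the 12 livers, as was that of Hk2.

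Igsf21, Prkd1 and Rab15 had dim probes, which were well above background on 9, 9 and 3 of 12 RSG arrays and on 6, 8 and 6 of 12 S arrays. Igsf21, a cell adhesion protein of the immunoglobulin family, ran from 0.57 to 1.89 with RSG and from -0.92 to 0.01 with S (difference 1.69, adjusted p = 8.99e-05). Prkd1, a serine and threonine kinase, was higher by 1.46 (adjusted p = 0.0194), a call lost without S replicate 5. Rab15, a small GTPase of endosomes, was called as higher, but as its probe was measured on few RSG arrays no size is given.

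**Figure D2:**
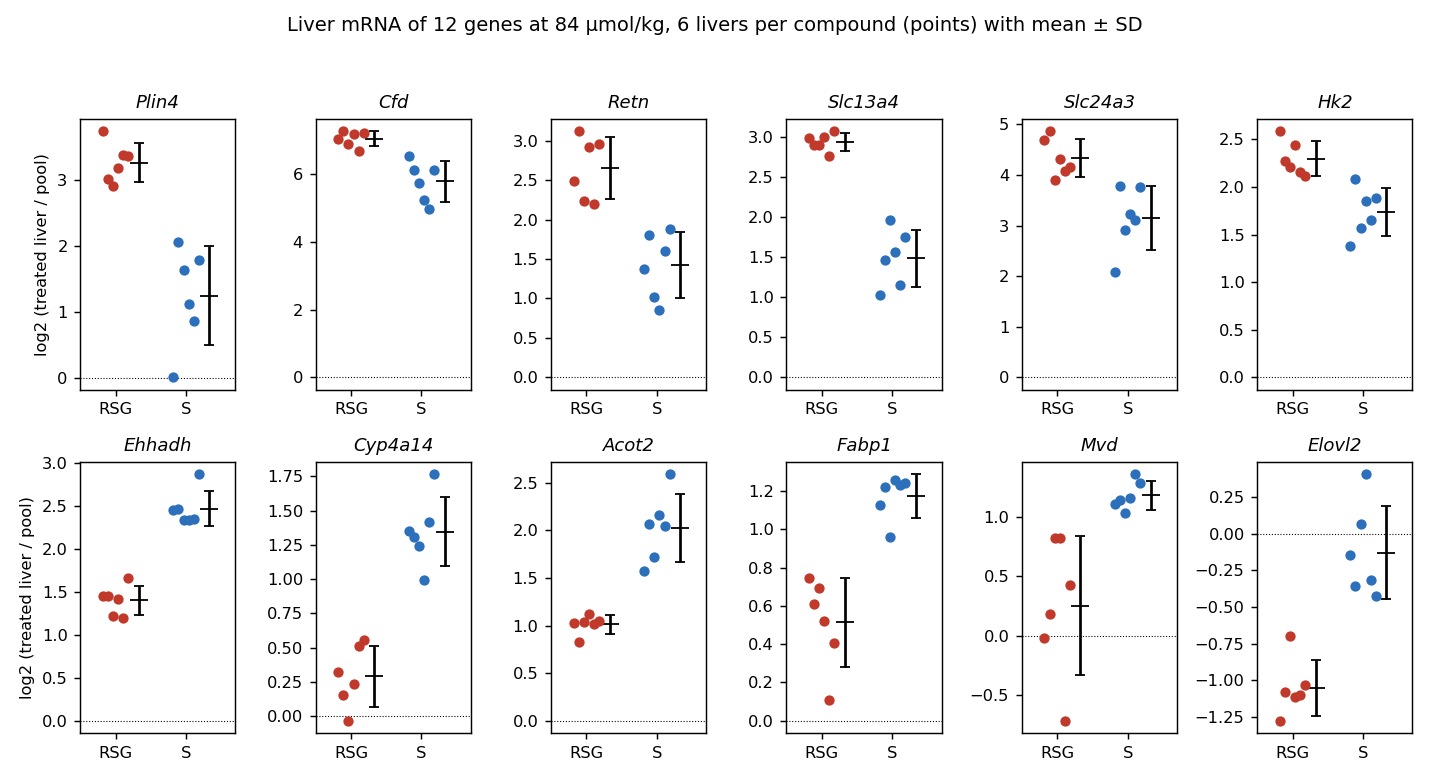
Log2 ratio to the pool (y axis) of 12 genes in each of 6 RSG livers (red) and 6 S livers (blue) at 84 µmol/kg, with the mean and SD of each group beside the points and the pool as a dotted line at 0. The upper 6 genes are higher in every RSG liver, the lower 6 are lower in every RSG liver, and Plin4 shows the widest gap between the means, 3.26 with RSG and 1.25 with S.

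The genes of peroxisomal and omega oxidation of fatty acids were the most clearly lower with RSG. Of 23 measured members 7 were called lower and 0 higher, where 1.28% of all genes were called lower. In all 7 the RSG livers lay below the S livers (1.41% of all genes). The median of the list was -0.03, with 10 members above 0 and 13 below it, and 16 members were not called. Ehhadh, the bifunctional enzyme of the peroxisomal pathway, had the smallest p-value of all sequences. Its log2 ratios ran from 1.19 to 1.66 in RSG livers (median 1.43) and from 2.34 to 2.87 in S livers (median 2.40). Ehhadh was above the pool in all 12 livers, and its level was 2.10-fold lower with RSG (difference -1.07, 95% interval -1.27 to -0.87, adjusted p = 4.08e-08). The pool channel of the same probe had a difference of -0.31 between the arrays of RSG and of S. The probe lies at chr16:21675824-21675883 of build mm8, on the minus strand.

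The Cyp4a genes encode the cytochromes that hydroxylate the far end of a fatty acid chain. Cyp4a14 ran from -0.03 to 0.56 in RSG livers (median 0.28) and from 0.99 to 1.76 in S livers (median 1.33). The RSG livers were near the pool and the S livers all above it (difference -1.05, adjusted p = 0.000334). Cyp4a10 ran from -0.48 to 0.28 with RSG and from 0.38 to 1.10 with S (difference -0.77, adjusted p = 0.00138), and Cyp4a31 from -0.46 to 0.38 with RSG and from 0.49 to 1.48 with S (difference -1.03, adjusted p = 0.000927). The same held for Cyp4a12b (difference -0.66). These genes belong to 1 family, and whether any of their probes share signal was not tested. Ech1 and Acot8, a peroxisomal isomerase and a thioesterase, completed the 7 with smaller differences of -0.39 and -0.37.

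In mitochondrial beta-oxidation 4 of 19 measured members were called lower and 0 higher, beside 1.28% of all genes called lower. The median was -0.19. Acot2, a mitochondrial thioesterase, had ratios of 0.83 to 1.12 in RSG livers (median 1.03) and of 1.58 to 2.59 in S livers (median 2.06). The groups were well apart (difference -1.02, adjusted p = 0.00552). Cpt1b, the muscle form of the carnitine palmitoyltransferase that admits fatty acids to mitochondria, had a difference of -0.84 (adjusted p = 0.0219), Eci1, an enoyl isomerase, had a difference of -0.38 (adjusted p = 0.01), and Acadl, the long-chain acyl dehydrogenase, one of -0.34 (adjusted p = 0.0361). The count was 2 without S replicate 6 and 7 without S replicate 1. Acot1, the cytosolic neighbour of Acot2, lies outside the list. It ran from -0.14 to 1.07 in RSG livers and from 1.41 to 2.55 in S livers (difference -1.28, adjusted p = 0.0174).

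**Figure D3:**
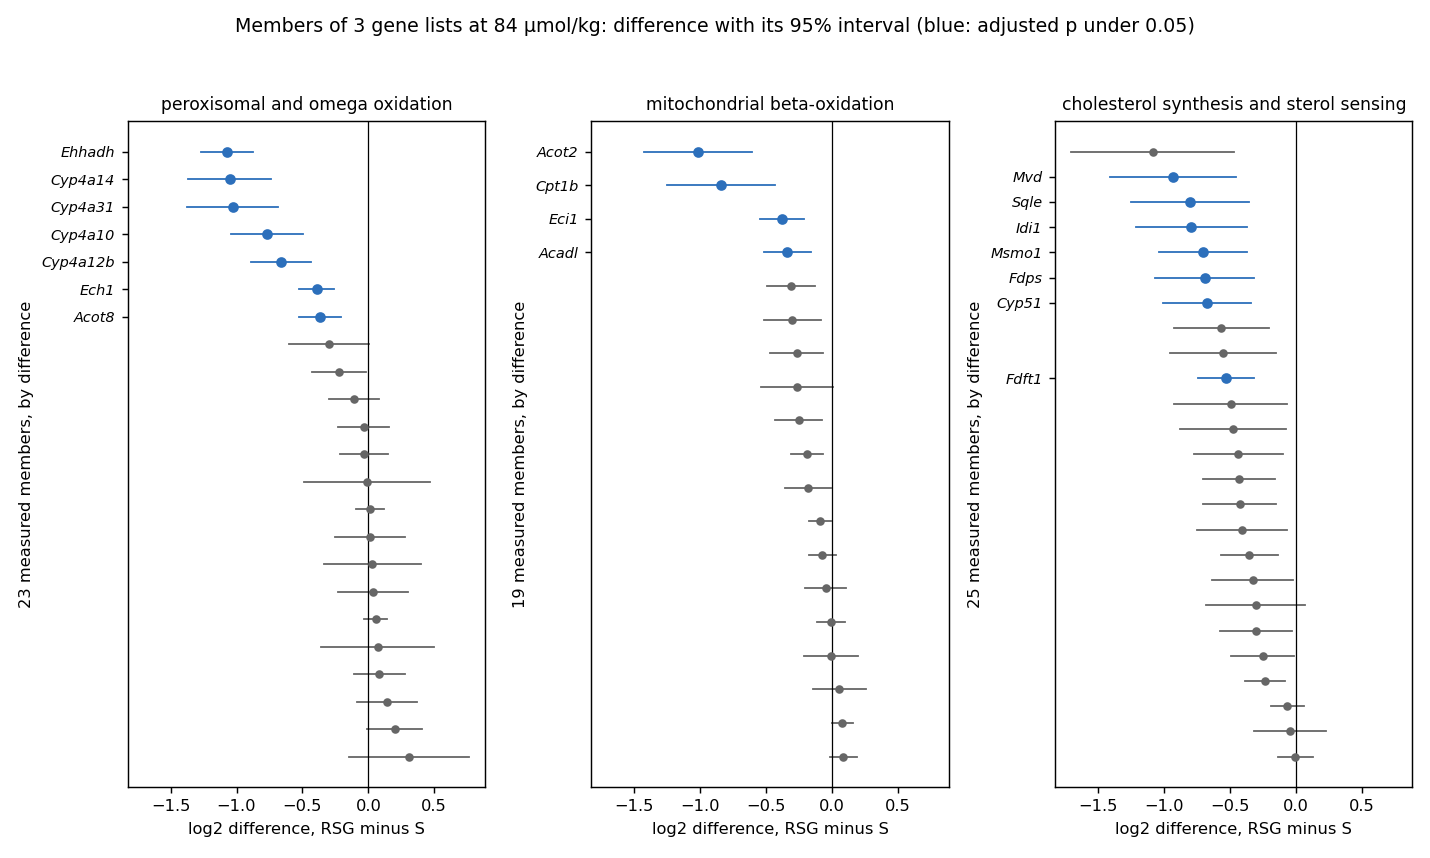
Log2 difference RSG minus S at 84 µmol/kg (x axis) with its 95% interval for the measured members of 3 gene lists, 6 livers per compound. The named members (blue) have an adjusted p under 0.05, 7 of 23, 4 of 19 and 7 of 25 from left to right, all to the left of 0, and all 25 of the cholesterol list lie left of 0.

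Of 16 measured fatty acid uptake and activation genes 3 were called lower and 0 higher, beside 1.28% of all genes called lower. The median was -0.05, with 5 members above 0. Fabp1, the abundant fatty acid binding protein of hepatocytes, ran from 0.11 to 0.74 in RSG livers (median 0.57) and from 0.96 to 1.26 in S livers (median 1.23). All RSG livers were lower, by 1.58-fold (difference -0.66, 95% interval -0.95 to -0.37, adjusted p = 0.00892). Fabp2, the intestinal form, ran from -0.40 to 0.66 with RSG and from 1.01 to 1.77 with S (difference -0.98, adjusted p = 0.00078). Acsl3, an acyl-CoA synthetase, had overlapping groups (difference -0.51, adjusted p = 0.0431) and kept its call without only 3 of the 12 livers. Cd36, the fatty acid translocase, was not called, with ratios of 0.74 to 1.07 in RSG livers and of 0.67 to 1.05 in S livers and an interval of the difference of -0.22 to 0.17.

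PPARs bind to DNA as partners of RXR at a direct repeat of AGGNCA with 1 base between the copies, so the 250 bases upstream of each start site in the RefSeq table of promoters (build GRCm38.p6) were searched on both strands for that repeat, with any base between the copies. Of the 17703 genes tested 10837 were found in the table by symbol. The motif was in 0.388% of these, in 1 of 142 called genes lower with RSG and in 2 of 87 called genes higher with RSG. The called genes that hold it are Fabp1, which was lower with RSG, and Slc13a4 and Ubash3b, which were higher. The stretches of Fabp1 and Slc13a4 are shown with the match in capitals, as its reverse complement, 5′ to 3′ along the gene. For Fabp1 (chr6:71199792-71199844, plus strand) the match ends 55 bases before the start, and for Slc13a4 (chr6:35308182-35308234, minus strand) it ends 76 bases before it.
Fabp1: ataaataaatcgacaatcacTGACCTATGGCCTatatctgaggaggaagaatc
Slc13a4: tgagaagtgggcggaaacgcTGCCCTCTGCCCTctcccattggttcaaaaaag
A match of letters is not a measured binding site. The motif was in 0 of the 14 peroxisomal and omega oxidation genes in the table.

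The genes of cholesterol synthesis leaned to one side. Of 25 measured members 7 were called lower with RSG and 0 higher, beside 1.28% of all genes called lower. All 25 differences were below 0, with a median of -0.43 against -0.01 over all genes. The list's median ratio was -0.53 to 0.50 in RSG livers and 0.43 to 0.63 in S livers, so the S livers were uniform and the RSG livers scattered. Mvd, which decarboxylates mevalonate pyrophosphate, ran from -0.72 to 0.83 in RSG livers (median 0.30) and from 1.03 to 1.36 in S livers (median 1.15). The groups did not overlap (difference -0.93, adjusted p = 0.0295). Msmo1 and Cyp51, which remove methyl groups from sterol intermediates, had differences of -0.70 (adjusted p = 0.0192) and -0.67 (adjusted p = 0.0233). Fdft1, squalene synthase, ran from -0.53 to 0.07 with RSG and from 0.15 to 0.49 with S (difference -0.53, 95% interval -0.74 to -0.32, adjusted p = 0.00474), and was the member that kept its call without any single liver. Idi1, Fdps and Sqle were the other called members, with differences of -0.79, -0.69 and -0.80. The count of called members was fragile. It was 1 without RSG replicate 1 or without RSG replicate 5, the liver with the lowest median, 2 without RSG replicate 2, S replicate 5 or S replicate 6, 4 without S replicate 3 or S replicate 4, 3 with the slide as a random block and 0 when the 12 livers were fitted alone.

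The sterol regulatory element, searched as TCACNCCAC on both strands in the same windows, was in 1.25% of the tested genes in the table and in 1 of the 17 cholesterol genes there. That gene was Hmgcs1, which makes the precursor of mevalonate and had a difference of -0.48 (95% interval -0.88 to -0.08, adjusted p = 0.228). Its stretch (chr13:119690194-119690242, GRCm38.p6, plus strand) is shown with the match in capitals, 129 bases before the start at its nearer end.
Hmgcs1: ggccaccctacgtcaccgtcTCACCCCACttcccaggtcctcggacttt

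Other genes lower with RSG lay outside these pathways. Elovl2, an elongase of polyunsaturated fatty acids, ran from -1.27 to -0.70 in RSG livers (median -1.09) and from -0.43 to 0.41 in S livers (median -0.23). It was below the pool in every RSG liver and close to it in the S livers (difference -0.92, adjusted p = 0.000112). Defb1, an antimicrobial defensin of epithelia, ran from -0.39 to 0.28 with RSG and from 0.95 to 1.76 with S (difference -1.43, adjusted p = 0.000102), and was well above background on 6 of 12 RSG arrays and on 12 of 12 S arrays. Lamb3, a laminin chain of epithelial basement membranes, ran from 0.13 to 0.81 with RSG and from 1.32 to 2.39 with S (difference -1.36, adjusted p = 0.000283). Krt23, a keratin, ran from 0.94 to 3.02 with RSG and from 2.35 to 3.51 with S (difference -1.49, adjusted p = 0.00258). Its groups overlapped through RSG replicate 1 at 3.02 and S replicate 3 at 2.35. Krt23 is on the cholangiocyte marker list, of which it was the only called member of 8 measured, and the summed level of that list was 12.33 to 13.16 in RSG livers and 12.65 to 13.18 in S livers. Stap1, a signalling adaptor of lymphoid cells, ran from -2.27 to -1.50 with RSG and from -1.45 to 0.20 with S (difference -1.22, adjusted p = 0.00274). Dntt, the template-independent DNA polymerase of lymphocytes, had a difference of -1.05 (adjusted p = 0.0109) and Ppp1r42, a regulatory subunit of a phosphatase, one of -1.07 (adjusted p = 0.013). Gabrg1 met the test too, but it was not well above background on any of the 24 arrays, so no fold change is given. Fads1, a fatty acid desaturase, had a difference of -0.49 (adjusted p = 0.017) and Grb14, an adaptor that binds the insulin receptor, one of -0.25 (adjusted p = 0.0294), a call lost without any of 7 of the 12 livers.

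The receptors themselves were not called. Pparg had ratios of 0.34 to 0.90 in RSG livers and of 0.32 to 0.52 in S livers, with an interval of the difference of -0.07 to 0.25. Ppara had ratios of 0.01 to 0.41 in RSG livers and of 0.07 to 0.47 in S livers, with an interval of -0.24 to 0.16. Fabp4, which carries fatty acids in adipocytes, was more than 3 log2 units above the pool in every liver of either group, with a difference of 0.23 and an interval of -0.51 to 0.97. Scd1, which desaturates stearate, and Fasn, fatty acid synthase, were above the pool in all 12 livers, with intervals of -0.35 to 0.57 and of -1.04 to 0.74. The probe for Fasn was saturated on 2 RSG arrays and 3 S arrays. Pdk4, which restrains glucose oxidation, had an interval of -0.81 to 0.66, and Fgf21, a fasting hormone of liver, had a difference of -0.73 with an interval of -1.57 to 0.12. In glucose output, G6pc, the last enzyme of glucose release, had a difference of 0.43 (interval 0.02 to 0.84, adjusted p = 0.304) and Fbp1 one of 0.05 (interval -0.24 to 0.34). Sult2a2, a hydroxysteroid sulfotransferase, was far below the pool in all 12 livers, with medians of -4.82 with RSG and -3.46 with S. It varied too much to tell the compounds apart (interval -2.73 to 0.41).

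The other lists gave few calls or none. Glucose output, pentose phosphate, bile acid, conjugating transferase, oxidative stress, interferon, antigen presentation, endoplasmic reticulum stress, circadian and respiratory chain genes had 0 called members each. The 13 insulin signalling genes measured had 1 called member, Grb14, which was lower, beside 1.28% of all genes called lower. Their median difference was 0.05. The median ratio of that list was 0.02 to 0.11 in RSG livers and -0.21 to -0.05 in S livers, without overlap. The median difference of the 21 interferon-induced genes was 0.06, and it was -0.23 without RSG replicate 5 and 0.28 without S replicate 3. Trf, the iron carrier transferrin made by hepatocytes, was higher by 0.37 (adjusted p = 0.0233) and the only called hepatocyte marker, and its call was lost without any of 7 of the 12 livers. Cyp3a16 and Cyp3a44, near-identical cytochromes that may share signal, were higher by 0.43 each and the only called members of the 28 xenobiotic P450 genes measured. Their calls were lost without any of 8 and 7 of the 12 livers. In 2 lists without a call every member lay on one side of 0. All 24 cell cycle genes had a difference below 0, with a median of -0.29, and Mcm6, a subunit of the replicative helicase, came nearest to a call (difference -0.89, adjusted p = 0.115). The median ratio of that list ran from 0.30 to 0.93 in RSG livers and from 0.03 to 1.62 in S livers, so that the groups overlapped widely. All 13 Kupffer cell and macrophage markers had a difference above 0, with a median of 0.30, and the ranges of the list were 0.00 to 0.80 in RSG livers and -0.36 to 0.45 in S livers. The 23 acute phase genes had a median difference of 0.37, with 1 called. The 5 erythroid markers measured had a median difference of -0.46, with 0 called and 4 below 0, and their summed level was 14.76 to 15.57 in RSG livers and 15.52 to 16.59 in S livers on the log2 scale. Of the stellate cell markers 10 of 11 and of the endothelial markers 10 of 12 were above 0, with medians of 0.17 and 0.06. Whether these cell markers had a part in the results above was not tested.

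**Figure D4:**
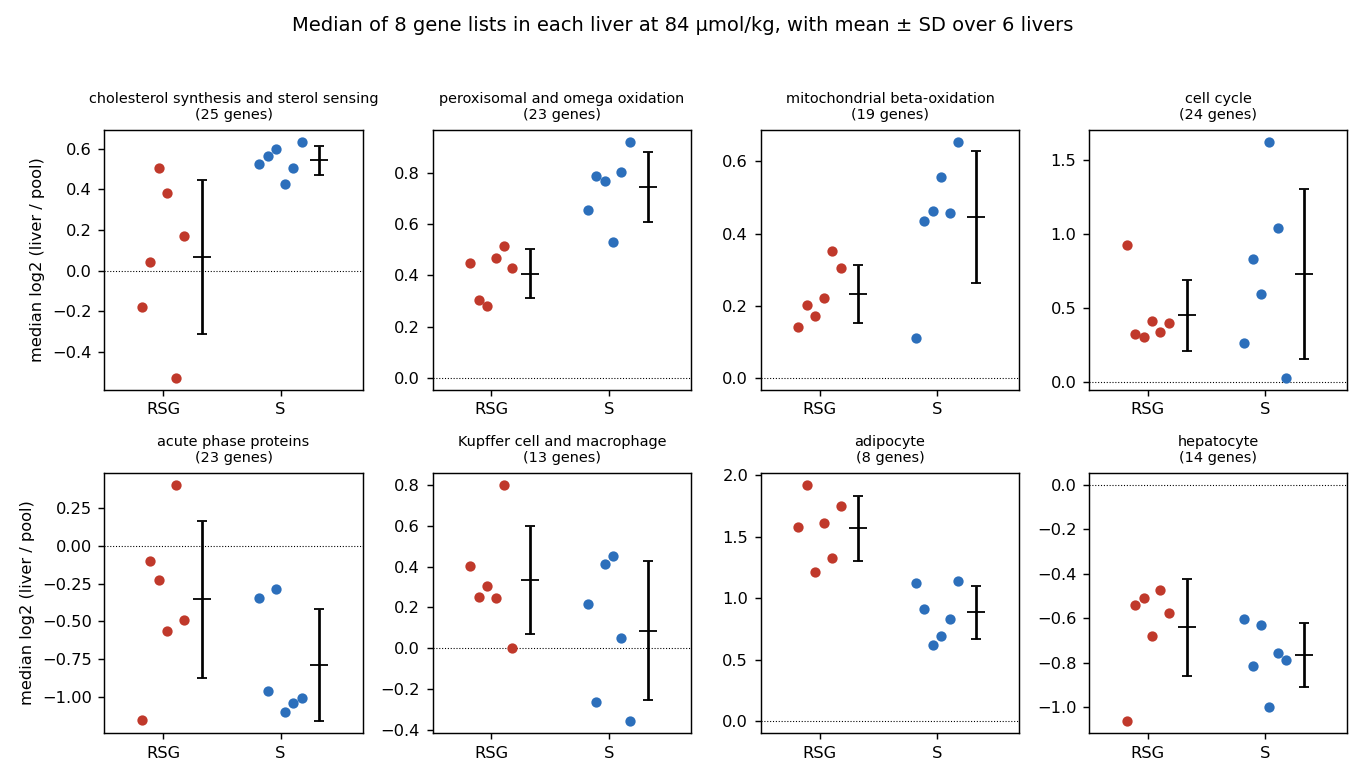
Median log2 ratio to the pool (y axis) of the measured genes of 8 lists in each RSG liver (red) and S liver (blue) at 84 µmol/kg, with the mean and SD over 6 livers. Among the 8 lists shown, peroxisomal and omega oxidation genes and adipocyte genes separate the groups without overlap. The oxidation list is at 0.28 to 0.51 with RSG and 0.53 to 0.92 with S, while cell cycle and Kupffer cell genes overlap. The insulin signalling list, not shown, also separates the groups.

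The same contrast at the other doses comes from different mice, and the counts below are from the fit without scan day. At 28 µmol/kg 237 sequences were called (0.946%) and at 280 µmol/kg 7203 (28.8%). Of the 471 sequences called at 84 µmol/kg, 452 had the same sign at 28 µmol/kg (96.0%, against 68.5% of all sequences) and 422 at 280 µmol/kg (89.6%, against 62.0%). The sign was the same at all 3 doses for 405 of them, or 86.0%. Called again with the same sign were 95 at 28 µmol/kg and 300 at 280 µmol/kg. No sequence had an RSG minus S difference at 84 µmol/kg that was separable from that at 28 µmol/kg (0 by limma at an adjusted p under 0.05, 800 at an unadjusted p under 0.05), whereas 2230 differed between 84 and 280 µmol/kg, 92 of them among the 471. In the lists, 4 members of peroxisomal and omega oxidation were called lower at 28 µmol/kg, 7 at 84 µmol/kg and 14 at 280 µmol/kg. Of all genes 1.07% were called in either direction at 28 µmol/kg, and at 280 µmol/kg 30.0% were called, 15.4% higher and 14.7% lower with RSG. For cholesterol synthesis the counts were 1, 7 and 19. All 24 cell cycle genes were lower with RSG at 280 µmol/kg, with medians of -0.03, -0.29 and -1.62 at the 3 doses.

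The lead genes followed different courses with dose. For Slc13a4 the difference was 1.27, 1.45 and 1.50 at 28, 84 and 280 µmol/kg, for Plin4 1.75, 2.02 and 1.45, and for Cfd 1.35, 1.26 and 1.76. None of these differed between doses by the test of the difference. For Ehhadh it was -0.50, -1.07 and -1.52, for Fabp1 -0.24, -0.66 and -1.81, and for Acot1 -0.64, -1.28 and -2.94, so that the gap was wider at 280 than at 84 µmol/kg (84 minus 280 µmol/kg: adjusted p = 0.0345, 0.000714 and 0.012). For Retn it was 0.52, 1.23 and 2.80 (adjusted p = 0.00735 for 84 minus 280 µmol/kg). Sdcbp2 was called at 28 and 84 µmol/kg, and Prkd1 and Stap1 at 84 µmol/kg alone. Their differences at 280 µmol/kg were -0.23, -0.64 and 0.07, none of which passed the test there, and each differed from that at 84 µmol/kg (adjusted p = 0.00586, 0.00676 and 0.011). Elovl2 had -0.56, -0.92 and -0.87 and was called at every dose.

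**Figure D5:**
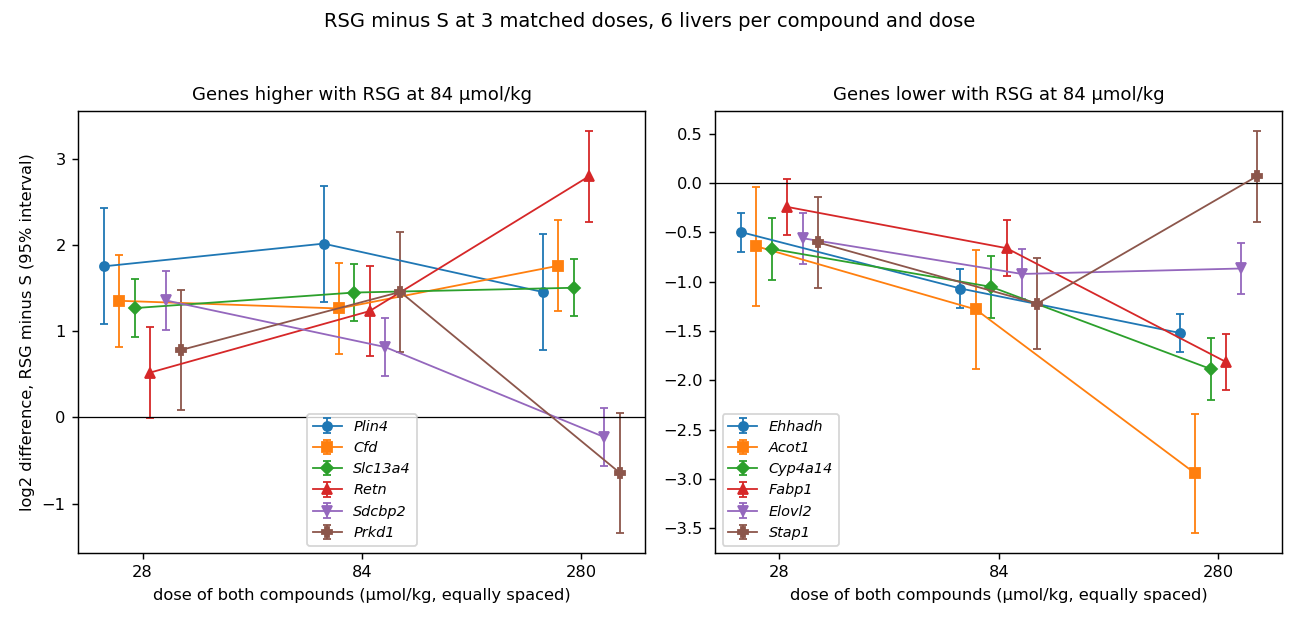
Log2 difference RSG minus S (y axis) with its 95% interval at 28, 84 and 280 µmol/kg (x axis), 6 livers per compound and dose, for 6 genes that were higher and 6 that were lower with RSG at 84 µmol/kg. Slc13a4 stays between 1.27 and 1.50, Acot1 drops to -2.94 and Prkd1 ends at -0.64.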

How the data were processed

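RNA of 36 treated db/db livers was measured on 72 arrays, 2 per liver with exchanged dyes. Scanning was followed by Agilent Feature Extraction 9.5, per the submitters' processing notes. In the deposited files the ratio column is log10 of Cy5 over Cy3, which the authors' software had corrected for background and dye, the signal columns hold linear intensity, and the remaining deposited columns (other) mark spots that are saturated, outlying or well above background. A deposited table of log10 ratios per sample, also by the authors, followed the same arrays (correlation 0.976 to 0.997) and served as an alternative.

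Which dye carried the treated liver came from the array labels. The 2 arrays of a liver correlated at -0.90 to -0.62 before 1 was turned. Ratios were turned to treated liver over pool, written as log2, averaged over both arrays and over spots of a probe, without control spots and spots marked as outliers (0.293%). Of 41174 probes, 25051 were tested because a share of at least 0.5 of the arrays of a liver group stood well above background in the treated channel. Symbols came from RefSeq accessions for 23396 probes (GRCm38.p6) and otherwise from the files. R 4.3.3 and limma 3.58.1 (lmFit and eBayes, 2-sided) gave the means of 6 groups and their differences, with Benjamini-Hochberg adjustment over all sequences, and figures were drawn with Python 3.11.15 and matplotlib 3.10.9. The fit was also run on simulated livers with independent noise for each sequence. These held no effect of scan day, slide or cage, so that run cannot speak to those. Genes were represented by their brightest probe. A gene is called at an adjusted p under 0.05.

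The genes named are the 14 highest and 14 lowest called genes whose groups do not overlap, up to 3 called genes of each list with 1 that goes against them (or the gene with the smallest p where none was called), and 17 genes always given. Some genes that the rule takes in are not reported here. The comparison, the lists and the genes were chosen with earlier results of these data known. Alternatives were normexp with loess, the authors' value table, the 12 livers alone, other filters, blocks for replicate number, scan day and slide, single dyes, centring, array weights, the treated channel alone, the mean of all probes of a gene, and each liver left out. Slide and treated channel were added after seeing the data. The number of arrays limits the precision.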

Additional observations from a re-analysis of the deposited data

Results flagged for a closer look

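In 11 of the 166 groups of 6 livers examined for the named genes, 1 liver stood apart from the others, where chance gives about 1 in 20. In RSG livers these were Acot2 in replicate 2 at 0.83 (others 1.01 to 1.12), Fasn in replicate 5 at 0.82 (others 2.05 to 2.63), Scd1 in replicate 5 at 2.05 (others 2.54 to 2.74), Gpat4 in replicate 3 at 0.31 (others 0.45 to 0.52) and Pparg in replicate 1 at 0.90 (others 0.34 to 0.51). In S livers they were Acot1 in replicate 6 at 2.55 (others 1.41 to 1.83), Ehhadh in replicate 6 at 2.87 (others 2.34 to 2.47), Casz1 in replicate 1 at 0.55 (others 1.41 to 1.87), Cidec in replicate 1 at 2.66 (others 3.57 to 3.97), Fabp2 in replicate 4 at 1.77 (others 1.01 to 1.19) and Krt23 in replicate 3 at 2.35 (others 3.08 to 3.51).

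For 27 named genes the RSG minus S difference at 84 µmol/kg differed from that at 280 µmol/kg (limma, adjusted p under 0.05 for the difference of differences). Values are that at 84 minus that at 280 µmol/kg. Among oxidation and fatty acid genes it was 1.66 for Acot1, 1.39 for Acot2, 1.28 for Cpt1b, 0.61 for Cyp4a10, 0.83 for Cyp4a14, 0.91 for Cyp4a31, 0.56 for Ech1, 0.74 for Eci1, 0.45 for Ehhadh, 1.15 for Fabp1, 2.12 for Fabp4 and 0.51 for Cd36. Fabp4 had differences of 0.23 at 84 and -1.89 at 280 µmol/kg. Among hepatocyte, glucose, amino acid and P450 genes it was -0.90 for Fbp1, -1.05 for Oat, 1.15 for Asns, -1.22 for Slc10a1, -0.44 for Trf, -0.56 for Cyp3a16, -0.54 for Cyp3a44 and 0.38 for Gstt2. Slc10a1, the bile acid importer, had differences of -0.35 at 84 and 0.86 at 280 µmol/kg. For the remaining genes it was 1.48 for Mcm6, 2.10 for Prkd1, 0.91 for Rab15 (a dim probe), -1.56 for Retn, 1.04 for Sdcbp2, -1.29 for Stap1 and -0.31 for Dcn.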

How the results depend on the processing

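Scan day and compound cannot be told apart. With scan day as a block 0 sequences were called, 89 met the thresholds of the methods and 660 differed between 84 and 280 µmol/kg. In that setting 0 members were called lower in each of the peroxisomal, mitochondrial and cholesterol lists. All 49 called named genes had the same sign. No day held both compounds, so no value within a day exists. The 12 livers alone gave 167 calls and 0 cholesterol members, normexp with loess 120 sequences at the thresholds of the methods, no filter on dim probes 4 cholesterol members, and array weights 840 calls and 9 mitochondrial members. Replicate numbers do not pair the livers (correlation -0.197 to 0.274, with 1 of 6 numbers best matched to itself), and with replicate number as a block 376 sequences and 4 cholesterol members were called. Chosen after seeing the data, slide as a random block gave 288 calls, 1467 dose differences against 280 µmol/kg and 3 cholesterol members. The treated channel alone, also chosen then, gave 525 calls (219 shared), 135 at the thresholds of the methods, 5 dose differences against 28 µmol/kg and 74.3% lower calls, against 63.7%, and 64.0% of its calls had 1 direction at all 3 doses, against 86.0%.

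With 1 liver left out, calls ran from 260 to 522 and sequences at the thresholds of the methods from 181 to 252. Sequences without overlap ran from 627 to 859, but this count cannot fall below the 542 of all livers when a liver is removed. The share with 1 direction at all doses ran from 83.0% to 89.0%. Dose differences ran from 0 to 2 against 28 and from 1484 to 2310 against 280 µmol/kg. Members called lower ran from 2 to 7 (mitochondrial), 7 to 7 (peroxisomal) and 1 to 9 (cholesterol). Of the 49 called named genes 31 were called without each liver, and 18 lost their call without at least 1. Among these, Plin3, Abca1 and Hk2 lost it without any of 3 livers, and Acot1, Cpt1b, Fads1 and Msmo1 without any of 2. Mvd and Cyp51 lost it without any of 6 and 5 livers. No called named gene changed sign under any of these settings, but 8 named genes that were not called changed sign without some liver (Fasn ran from -0.29 to 0.09 and Fabp4 from -0.04 to 0.38), and with scan day as a block Hba-a1, which was not called, had a difference of 0.83 in place of -0.70. Dim probes limit Igsf21, Prkd1, Rab15, Plin1 and Adipoq. The cause of these shifts was not tested.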

Other observations

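Some called sequences outside the rule for named genes were chosen after their values were seen. Hao2, a peroxisomal hydroxy acid oxidase, was lower with RSG, with ratios of -5.38 to -3.07 in RSG livers and of -3.50 to -1.66 in S livers (difference -1.97, limma adjusted p = 0.0416), and was well above background on 4 of 12 RSG arrays and 12 of 12 S arrays. Krt20, an epithelial keratin, was lower too (difference -2.14), with the same counts of arrays well above background. A second probe of Aqp7, a glycerol channel, was lower (difference -1.50), where its brightest probe was not called (difference -1.06). That second probe was dim, well above background on 4 of 12 RSG arrays and 12 of 12 S arrays. Its pool channel was so on 0 of 12 arrays of either compound. A second probe of Retn was higher (difference 1.80). Cdc6 and E2f8, of DNA replication and the cell cycle, were well above background on 0 of 12 RSG arrays and on 6 and 11 of 12 S arrays, and on these probes were at least 1.07-fold and at least 1.13-fold lower with RSG, the RSG level being set at the lowest signal well above background or the probe's own, whichever was higher. The brightest probe of E2f8 was not called (difference -0.62). Among calls that were higher with RSG, Gprc5b, an orphan receptor, had a difference of 1.14 and Cfap57, a protein of cilia, one of 1.69. Ankrd22, an ankyrin repeat protein, had one of 1.63. The probes of Cfap57 and Ankrd22 were dim, well above background on 12 and 11 of 12 RSG arrays and on 8 and 6 of 12 S arrays. A probe of Elovl7, an elongase of long fatty acids, had a difference of 1.49, where its brightest probe was not called (0.79). A probe of Serpina4-ps1, a pseudogene of the serpin family, was well above background on 10 of 12 RSG arrays and 0 of 12 S arrays and was at least 1.55-fold higher with RSG, where its brightest probe was not called (1.03).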
